A study of Mus musculus with 2 samples.

Results

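Nuclear-encoded oxidative phosphorylation genes were examined for Mbnl2 crosslinking in mouse quadriceps. The members are the protein-coding nuclear genes of the mm9 GENCODE annotation whose symbol starts with Nduf, Uqcr, Atp5 or Cox followed by a digit, or is Sdha, Sdhb, Sdhc, Sdhd, Cyc1 or Cycs. The rule finds 101 genes with 100 symbols, since Ndufb8 has 2 gene identifiers, among 22367 nuclear protein-coding genes. By their known roles 39 were placed in complex I (7 core and 32 accessory subunits), 4 in complex II, 9 in complex III, 18 in complex IV and 15 in complex V. The remaining members are cytochrome c (Cycs), 11 assembly factors and 4 genes that the symbol rule catches although they are not subunits (Atp5s, Atp5sl, Cox4nb and the pseudogene-named Atp5l-ps1, which is annotated as protein-coding). Ndufa4 was kept under complex I by its symbol, although its product is now placed in complex IV.

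Respiratory complexes I to IV pass electrons from NADH and succinate to oxygen. Complexes I, III and IV pump protons across the inner mitochondrial membrane as they do so, and complex V uses the proton gradient to make ATP. Most subunits are translated from nuclear genes in the cytoplasm and imported, while a small core is made inside the mitochondrion. Muscle is rich in these complexes, and several complex IV subunits have a muscle isoform beside a ubiquitous or testis isoform. Mbnl2 belongs to the muscleblind-like family, RNA-binding proteins that regulate splicing in the nucleus and bind 3′ UTRs of mature mRNAs, with a preference for a GC step between pyrimidines (in DNA letters TGCT or TGCC, with C in place of the first T also allowed).

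In HITS-CLIP, ultraviolet light links a protein to the RNA it touches, the RNA is trimmed with RNase A, and the short RNA fragments (tags) that copurify with the protein are sequenced. The mice were WT and *Mbnl1* KO (Mbnl1-/-, an allele that lacks exon 3), labelled as C57BL/6 and 15 to 16 weeks old, whereas the study's methods name another, mixed background for its compound knockouts. The deletion is present in the whole animal, and both groups carry Mbnl2, the protein that was immunopurified. Each genotype has a single table that pools its 3 mice. Variation among animals is therefore unknown, and the genotypes were compared without a test. The comparison asks whether Mbnl2 is found more often on these RNAs where Mbnl1 is missing. RNA levels were not analysed here, so more RNA molecules and more Mbnl2 per molecule cannot be told apart, nor can more cells of a type and more RNA per cell.

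Overlapping tags on members formed piles, and the 6 exonic piles with the most tags, Atp5a1 left aside, are shown by the 30 bases around their deepest point, because they are the places where Mbnl2 was most often found on these mRNAs. The bases are from mm9, on the strand of the gene and 5′ to 3′, and capitals mark these tetramers.
Sdha 3′ UTR, minus strand, chr13:74460390-74460419: agattgtgatcaacagcttggtagtacttg
Sdhc 3′ UTR, minus strand, chr1:173059779-173059808: tcaatccccttggagtgcagtagagcggct
Uqcrc2 3′ UTR, plus strand, chr7:127802734-127802763: ttaaaagcatagtgactcccagctgtccta
Sdha coding sequence, minus strand, chr13:74460538-74460567: gccaccgtacctccTGCTatcCGCTcctac
Cox5a 3′ UTR, plus strand, chr9:57380103-57380132: gacttaacTGCTatTGCTacttgattgaaa
Sdhc coding sequence, minus strand, chr1:173066151-173066180: aagtttgTGCTtgtcttccCGCTcatgtac
Of these 6 windows 3 hold such a tetramer, 2 copies each, against 33.5% of all 30-base windows on member exons. In this order the piles held 7, 8, 5, 5, 7 and 3 WT tags and 41, 30, 23, 21, 15 and 17 *Mbnl1* KO tags. Every tag in these 6 piles has a reference sequence that occurs once in mm9. In all, 22 piles on members had at least 8 tags, with 11 in 3′ UTRs, 6 in coding sequence and 5 in introns. The largest, in the Atp5a1 3′ UTR, had 18 WT and 55 *Mbnl1* KO tags.

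The tables held 343554 WT and 476543 *Mbnl1* KO tags, collapsed from 5176203 and 50329234 reads. Tags whose reference sequence is at least 70% a single base, called single-base tags here, were 43.3% of the tags in WT and 16.8% in the *Mbnl1* KO table, and this difference enters every ratio scaled to the table. Positions recur within a table, up to 3 times in WT and 6 times in *Mbnl1* KO, which leaves 317893 and 407846 distinct positions. Mbnl1, the targeted gene, still had 100 WT and 452 *Mbnl1* KO tags over its body, and since the coordinates of the deletion were not used here, these do not check the genotype. All 9 skeletal fibre markers had tags (931 WT, 3247 *Mbnl1* KO, each gene at least 20 pooled). The slow fibre markers Myh7, Tnnt1 and Tnni1 had 11 and 18 tags (ratio 1.18, 0.528 to 2.76). Of these Myh7 had 4 and 17 (3.06, 0.999 to 12.5), Tnni1 6 and 1 (0.120, 0.00261 to 0.990) and Tnnt1 1 and 0. Of the cardiac markers Nppa and Myl7 had 0 tags and Myh6 had 4 and 3. For the other cell types, 3 markers each, the WT and *Mbnl1* KO tags were 147 and 578 for fibroblasts, 37 and 87 for endothelium, 15 and 18 for macrophages, 8 and 6 for red cells, 6 and 14 for Schwann cells and 2 and 18 for adipocytes. Their part in the results was not tested.

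Members together carried 317 WT tags and 1082 *Mbnl1* KO tags, each tag counted once on the strand of the gene. This is 923 WT and 2271 *Mbnl1* KO tags per 1000000 tags in the table, or 0.0923% and 0.227% of all tags. The *Mbnl1* KO/WT ratio of these sums was 2.46, with a 95% interval of 2.17 to 2.80 (exact Clopper-Pearson from the *Mbnl1* KO share of the tags, counting error only). On distinct positions the members had 275 WT and 775 *Mbnl1* KO positions and a ratio of 2.20 (1.91 to 2.53). The other protein-coding genes together stood at 1.61 (1.59 to 1.62) on tags and 1.49 (1.47 to 1.50) on distinct positions. The 9 skeletal fibre markers stood at 2.51 (2.34 to 2.71) on tags, so a ratio of this size was not particular to the members. At least 1 tag was found on 93 members. Of the 8 without a tag, Ndufa1, Ndufa13, Ndufc1 and Ndufs5 belong to complex I, Uqcrb to complex III, Cox6b2 to complex IV and Atp5g2 to complex V, and Atp5sl is a gene caught by symbol. A count of 0 WT tags allows up to 8.73 tags per 1000000 (3 tags).

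Depth allows a ratio for few members. At least 20 pooled tags were found on 13 members, 10 to 19 on 22 and 1 to 9 on 58. Among the 13, 7 (53.8%) had a ratio of 2 or more, whereas 41.5% of the 3877 protein-coding genes with as many tags did. None of the 13 was at 0.5 or less, against 3.77% of all genes, and 8 (61.5%) had an interval above 1, against 38.4%. With 13 genes these shares are not far from the background. The median ratio was 2.02 (1.50 to 5.77) in the 13 and 1.74 (1.68 to 1.78) over all genes tested. The typical gene was thus also higher in the *Mbnl1* KO table. At a limit of 10 pooled tags the distance was larger, with 23 of 35 members at 2 or more against 39.2% of all genes. The medians were then 3.60 and 1.67, but ratios on so few tags have wide intervals. Whatever the tag number, the interval lay above 1 for 17 of the 93 members with a tag (18.3%) and below 1 for 0, against 12.3% and 1.98% of the 16021 protein-coding genes with a tag. Tags in only the *Mbnl1* KO table were seen for 24 of them (25.8%) and in only the WT table for 2 (2.15%, Cox18 and Ndufb4, with 2 and 1 tags), against 19.2% and 8.11% of those genes. The members thus leaned the way most genes did. With only tags of at least 2 reads that are not single-base, the ratio was 1.49 at Atp5a1, 2.22 at Sdha, 1.19 at Sdhc, 2.51 at Uqcrc2 and 0.979 at Atp5b, and the median over all genes tested was 1.32. Atp5a1, Sdhc and Atp5b are thus no longer at 2 under that setting, whereas Atp5o (4.18, from 1.27) and Ndufs1 (2.51, from 1.97) came to lie above it.

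**Figure D1:**
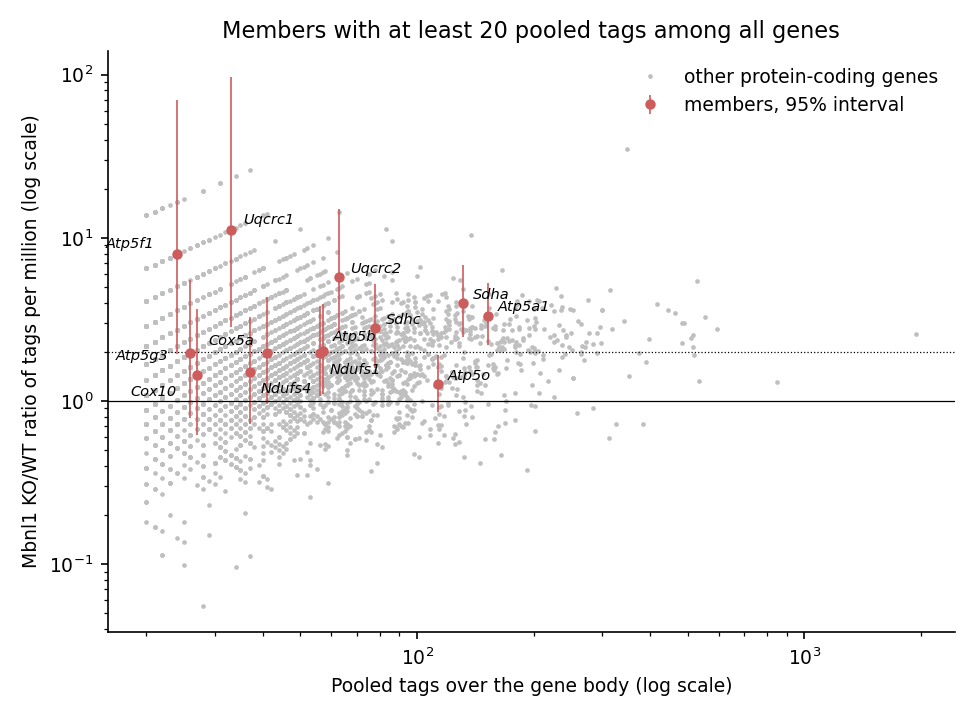
*Mbnl1* KO/WT ratio of tags per 1000000 (log scale) against pooled tags over the gene body (log scale), for protein-coding genes with at least 20 pooled tags and tags in both tables. Red points are the 13 members with 95% counting intervals, which lie between 1.27 and 11.2, inside the cloud of the other genes in grey; the solid line is at 1 and the dotted line at 2.

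Complex V makes ATP, and its catalytic head carried the most tags of any member. Atp5a1, the alpha subunit of the head, had 27 WT and 125 *Mbnl1* KO tags (ratio 3.34, 2.19 to 5.26), and all but 2 of them lay on exons. Atp5b, the catalytic beta subunit on chr10:127520329-127527447, had 15 WT and 42 *Mbnl1* KO tags and a ratio of 2.02 (1.10 to 3.92). All of these tags also fall inside Baz2a, an annotated gene that spans Atp5b on the same strand. Many of the WT tags of Atp5b lay on a small RNA in its intron, since 8 WT and 3 *Mbnl1* KO tags lay on SNORD59, a small nucleolar RNA. The AC131120.1 RNA, also inside Atp5b, had 0 and 4. On exons alone Atp5b had 7 WT and 35 *Mbnl1* KO tags (ratio 3.60, 1.58 to 9.62), nearly all in coding sequence (6 and 34). Atp5f1, a subunit of the peripheral stalk, had 2 WT and 22 *Mbnl1* KO tags and a ratio of 7.93 (1.95 to 69.6), whose width shows how few WT tags stand behind it. The complex as a whole had 107 WT and 329 *Mbnl1* KO tags and a ratio of 2.22 (1.78 to 2.78).

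Atp5o, the stalk subunit that confers oligomycin sensitivity, had 41 WT and 72 *Mbnl1* KO tags and the lowest ratio of the 13, 1.27 (0.851 to 1.91). Its annotated body is 247 kb long (chr16:91684643-91931932), because a single long transcript extends the gene far beyond the 3′ end of its shorter coding transcript. Of these, 30 WT and 6 *Mbnl1* KO tags were single-base, and 2 intronic piles of such tags held 13 WT and 2 *Mbnl1* KO tags and 11 WT and 3 *Mbnl1* KO tags. Within that shorter transcript (chr16:91925459-91931932) only 1 WT and 14 *Mbnl1* KO tags remained, for a ratio of 10.1 (1.54 to 427). On another annotated gene of the same strand, such as Cryzl1, lay 5 WT and 49 *Mbnl1* KO tags of the body, and without them the ratio was 0.461. The value for the whole body therefore describes this long interval rather than the Atp5o mRNA. Without Atp5o the other 14 genes of complex V had 66 WT and 257 *Mbnl1* KO tags (ratio 2.81, 2.13 to 3.74). Leaving out Atp5a1 instead, the complex had 80 WT and 204 *Mbnl1* KO tags (ratio 1.84, 1.41 to 2.41).

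Subunit c forms the rotating ring of complex V and is encoded by 3 genes that give the same mature protein. Atp5g3 had 7 WT and 19 *Mbnl1* KO tags (ratio 1.96, 0.788 to 5.51), all on exons and mostly in coding sequence (5 and 15). Atp5g1 had 5 and 10 tags (1.44, 0.449 to 5.38), but only 1 tag in each table has a sequence that occurs once in the genome, so reads of near-identical copies may be counted here. Atp5g2 had 0 tags in both tables. At this depth the genotypes could not be told apart for any of the 3 genes.

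Complex II, succinate dehydrogenase, has only nuclear subunits and held 49 WT and 190 *Mbnl1* KO tags on 4 genes (ratio 2.80, 2.03 to 3.91). Sdha, the flavoprotein that oxidises succinate (chr13:74459702-74487728), had 20 WT and 111 *Mbnl1* KO tags, 58.2 and 233 per 1000000, and a ratio of 4.00 (2.47 to 6.80). Its 2 windows shown above lie on either side of the end of the coding sequence, and its 3′ UTR held 13 WT and 72 *Mbnl1* KO tags in all. Sdhc, a membrane anchor (chr1:173057296-173080734), had 16 WT and 62 *Mbnl1* KO tags and a ratio of 2.79 (1.59 to 5.19). The other anchor, Sdhd, had 2 and 10 tags (3.60, 0.768 to 33.8). Sdhb, the iron-sulphur subunit, differed from them in direction, with 11 WT and 7 *Mbnl1* KO tags and a ratio of 0.459 (0.151 to 1.30) whose interval includes 1. Of its WT tags 6 were single-base, all 11 were intronic, and its exons held 0 WT and 5 *Mbnl1* KO tags.

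Complex III passes electrons from ubiquinol to cytochrome c, and its 9 genes had 18 WT and 111 *Mbnl1* KO tags (ratio 4.45, 2.69 to 7.78). Uqcrc2, a core protein (chr7:127778690-127802992), had 7 WT and 56 *Mbnl1* KO tags and a ratio of 5.77 (2.62 to 15.0). Its 3′ UTR carried 6 WT and 36 *Mbnl1* KO tags, most of them in the pile shown above. On distinct positions Uqcrc2 had 6 WT and 33 *Mbnl1* KO positions (ratio 4.29, 1.77 to 12.5). Uqcrfs1, the Rieske iron-sulphur protein, had 1 and 8 tags (5.77, 0.773 to 256), all on exons, and Cyc1, cytochrome c1, had 3 and 3 (0.721, 0.0966 to 5.38).

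Uqcrc1, the partner core protein (chr9:108838661-108851685), had the highest ratio of the 13, with 2 WT and 31 *Mbnl1* KO tags and a ratio of 11.2 (2.84 to 96.4). Most of its tags were not on the mRNA. Intron 3 (chr9:108844185-108846088) held 1 WT and 25 *Mbnl1* KO tags, and 22 of these *Mbnl1* KO tags lay on a tandem repeat of 31 nt that fills 671 nt of the intron with 97.3% identity between neighbouring copies. The first 30 bases of a copy on the plus strand are shown because the value rests on them.
Uqcrc1 intron 3, chr9:108845443-108845472: atgTGCTtacctattgtgtctcctgtatac
The stretch shown holds a TGCT, in capitals. The 22 tags each match more than 1 place in the genome, so they cannot be placed at one of them. Outside the repeat Uqcrc1 had 2 WT and 9 *Mbnl1* KO tags, and its exons had 1 and 3. Without Uqcrc1 the other 8 genes of complex III had 16 WT and 80 *Mbnl1* KO tags (ratio 3.60, 2.09 to 6.61).

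Complex I takes electrons from NADH. Its 39 nuclear genes had 62 WT and 248 *Mbnl1* KO tags and a ratio of 2.88 (2.18 to 3.87), with 2.16 (1.35 to 3.59) over the 7 core and 3.34 (2.34 to 4.88) over the 32 accessory genes. The core subunit with the most tags was Ndufs1, an iron-sulphur protein (chr1:63190170-63223396), at 15 WT and 41 *Mbnl1* KO tags and a ratio of 1.97 (1.07 to 3.83). Among the accessory subunits Ndufs4 led with 12 and 25 tags (1.50, 0.727 to 3.28), which except for 1 *Mbnl1* KO tag lay in the introns of its 100.3 kb body. Ndufb9 was the reverse, with all of its 1 WT and 18 *Mbnl1* KO tags on 0.651 kb of exon (ratio 12.98, 2.05 to 541).

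No complex I member showed a ratio with an interval below 1, but only 1.98% of the 16021 protein-coding genes with a tag did. Ndufa9 and Ndufa4l2, named after their values were seen, had 0 WT tags and 13 and 12 *Mbnl1* KO tags. Against the floor of 3 WT tags these are at least 3.12-fold and at least 2.88-fold higher in *Mbnl1* KO. The lower 95% limits of their ratios, which also cover the counting error of the *Mbnl1* KO tags, were 2.20 and 2.003. Ndufa4l2 resembles Ndufa4, which had 2 and 10 tags (3.60, 0.768 to 33.8).

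Complex IV, cytochrome c oxidase, reduces oxygen. Its 18 nuclear genes had 45 WT and 121 *Mbnl1* KO tags (ratio 1.94, 1.37 to 2.79), and 19 and 91 on exons alone (ratio 3.45, 2.09 to 6.00). Cox5a (chr9:57369039-57380231) led with 11 and 30 tags (1.97, 0.958 to 4.35), 22 of them in the 3′ UTR pile shown above. Per kb of exon and per 1000000 tags it stood at 33.7 in WT and 73.0 in *Mbnl1* KO, beside 25.1 and 82.3 for Atp5a1 and 13.5 and 54.0 for Sdha. For its length Cox5a therefore carried more WT tags than these genes with higher totals, and fewer *Mbnl1* KO tags than Atp5a1 alone.

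The isoforms of complex IV were set beside each other on exons, where their short mRNAs lie. Cox6a2, the muscle isoform of subunit VIa, had 3 WT and 13 *Mbnl1* KO exon tags (3.12, 0.858 to 17.1), whereas the ubiquitous Cox6a1 had 1 and 3. For subunit VIII the muscle isoform Cox8b had 1 and 6 exon tags, the ubiquitous Cox8a 0 and 10, and the testis isoform Cox8c 0 and 0. Against 3 WT tags, Cox8a was at least 2.40-fold higher in *Mbnl1* KO, with a lower 95% limit of its ratio of 1.62. For subunit VIIa the muscle isoform Cox7a1 had 0 exon tags in both tables and the ubiquitous Cox7a2 had 0 and 7, while Cox7a2l, a supercomplex factor related to them, had 0 and 0. Muscle isoforms were thus not the ones with more tags throughout.

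For subunit IV the ubiquitous Cox4i1 had 1 WT and 15 *Mbnl1* KO exon tags (10.8, 1.66 to 455), 14 of the latter in coding sequence, and Cox4i2, best known from lung, had 3 and 3. All Cox4i1 tags also fall inside Gm20388, a long annotated gene that spans it on the same strand. Cox6b1 had 0 and 2 exon tags, against 0 and 0 for the testis isoform Cox6b2, and all 7 WT tags over the Cox6b1 body were single-base. Cox7b had 0 and 2 exon tags, whereas the testis isoform Cox7b2 had none on exons, its 6 WT and 7 *Mbnl1* KO tags lying in introns of a 105 kb body. Testis isoforms had no exon tag in either table.

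Cytochrome c, the soluble carrier between complexes III and IV, is encoded in somatic tissues by Cycs. Cycs had 1 WT and 17 *Mbnl1* KO tags (ratio 12.3, 1.92 to 512), all on exons. Only 1 WT and 3 *Mbnl1* KO tags have a sequence found once in the genome, so many could come from copies of the gene. The 9 tags of its largest pile stand for 17575 reads, and 0 of them occur once.

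The 11 assembly factors help to build the complexes without being part of them. They had 26 WT and 58 *Mbnl1* KO tags and a ratio of 1.61 (0.996 to 2.66), and only 2 WT and 23 *Mbnl1* KO of these tags lay on exons. Cox16 gave 8 WT and 11 *Mbnl1* KO of them, all intronic and all also on another annotated gene of the same strand. Cox10, which makes haem for complex IV, had 9 and 18 tags (1.44, 0.615 to 3.64), all but 3 in introns of its 117 kb body. With tags of at least 2 reads the Cox10 ratio was 0.560, but on 10 pooled tags, too few for a ratio to be called. The 4 genes caught by symbol had 9 and 8 tags (0.641, 0.215 to 1.87).

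**Figure D2:**
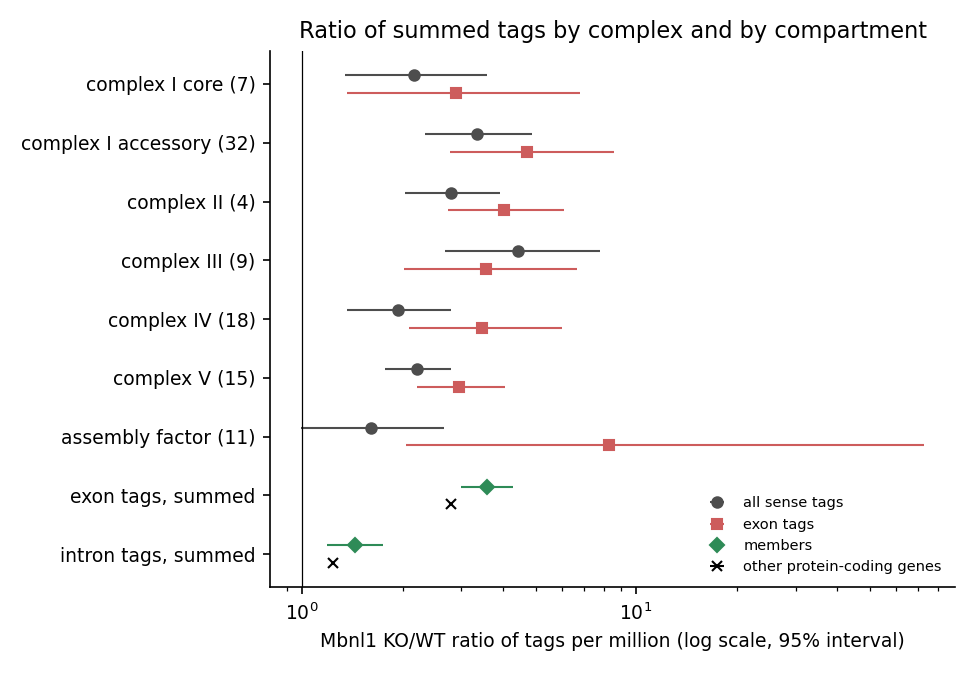
*Mbnl1* KO/WT ratio of summed tags per 1000000 (log scale) with 95% counting intervals, by complex with the number of genes in brackets, for all sense tags (grey circles) and exon tags (red squares). The lower rows set members (green) beside all other protein-coding genes (crosses) for exon tags, 3.57 against 2.79, and intron tags, 1.44 against 1.24.

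**Figure D3:**
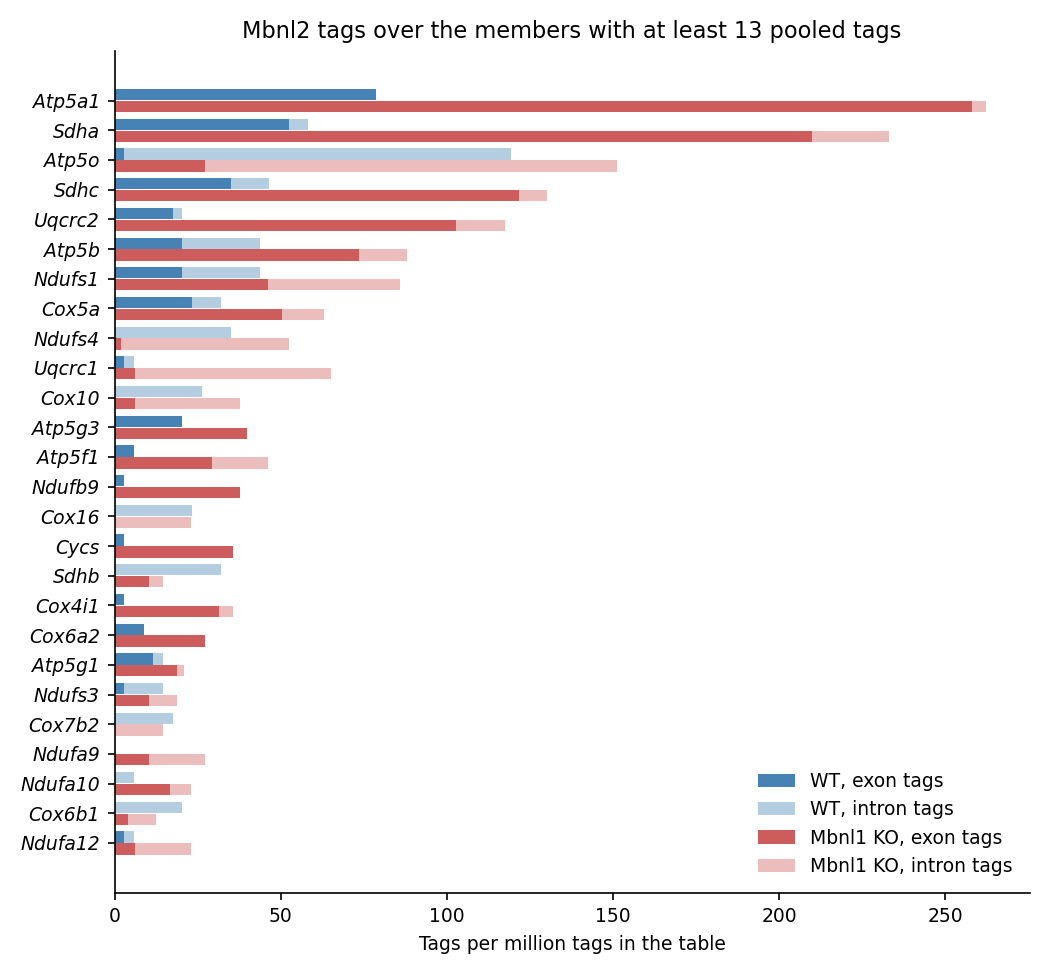
Tags per 1000000 tags in the table over the gene bodies of members with at least 13 pooled tags, WT in blue above and *Mbnl1* KO in red below, with exon tags dark and intron tags pale. Atp5a1, Sdha, Sdhc and Uqcrc2 are mostly exonic in both tables, whereas Atp5o, Ndufs4, Uqcrc1, Cox10, Cox16 and Cox7b2 are mostly intronic.

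Mbnl2 acts in the nucleus and on mature mRNA, so the tags were divided by the annotated region of their midpoint. On members 47.9% of WT tags (42.3 to 53.6) and 69.6% of *Mbnl1* KO tags (66.8 to 72.3) lay on exons, against 23.7% and 41.2% on all other protein-coding genes. With single-base tags left out, the exon shares were 62.0% and 71.3% on members and 31.3% and 44.5% elsewhere. All 72 single-base WT tags on members were intronic. Without the 5 members that hold the most tags, the exon shares of the others were 42.7% in WT and 62.5% in *Mbnl1* KO. A larger share of the tags thus lay on exons in members than in the other genes together, in both tables. This was not particular to the members. Of all tags, the exon share was 62.0% in WT and 70.3% in *Mbnl1* KO on cytoplasmic ribosomal protein genes. On the skeletal fibre genes it was 77.2% and 73.3%. Intron length was not taken into account.

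The ratio between genotypes also differed by compartment. Exon tags of members went from 152 in WT to 753 in *Mbnl1* KO (ratio 3.57, 3.00 to 4.28), whereas intron tags went from 165 to 329 (ratio 1.44, 1.19 to 1.74). Other genes showed 2.79 (2.75 to 2.83) on exons and 1.24 (1.23 to 1.25) in introns. All 72 WT single-base tags of members lay in introns, and without single-base tags the gap between compartments was smaller. The members then had 2.43 (2.04 to 2.91) on exons and 1.60 (1.26 to 2.04) in introns, and other genes 1.96 (1.93 to 1.99) and 1.11 (1.10 to 1.13). On distinct positions the exon ratio was 2.91 (2.40 to 3.54) in members and 2.39 (2.35 to 2.43) elsewhere, where the intervals meet. Of the 79 members with an exon tag, 16 (20.3%) had an exon interval above 1 and 0 had one below 1, against 14% and 0.149% of the 10037 protein-coding genes with an exon tag. Members thus shared the general pattern of a higher ratio on exons than in introns.

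Within exons, tags of members were spread over coding sequence and 3′ UTR. The 3′ UTR held 55.9% of WT and 53.8% of *Mbnl1* KO exon tags on members, against 69.5% and 73.6% on other genes. Coding sequence held 36.8% (29.2 to 45.0) and 43.2% (39.6 to 46.8), against 23.3% and 22.1%. Per kb of sequence the difference was larger. Members had 1.03 WT tags per kb of coding sequence and 1.21 per kb of 3′ UTR, and 5.97 and 5.76 in *Mbnl1* KO, whereas other genes with a tag had 0.172 and 0.547 in WT and 0.633 and 2.24 in *Mbnl1* KO. Members were thus nearly level between the regions, while on other genes together the 3′ UTR was the denser one. This was not particular to the members. Cytoplasmic ribosomal protein genes had 0.350 WT tags per kb of coding sequence and 0.393 per kb of 3′ UTR, and 1.36 and 1.55 in *Mbnl1* KO. Within members, the order of the regions rests on a few genes. Without the 5 with the most tags the 3′ UTR held 38.6% of WT and 41.2% of *Mbnl1* KO exon tags, and coding sequence held 44 of the 88 WT exon tags and 53.9% of those in *Mbnl1* KO. Skeletal fibre genes went further, with 82.6% of WT and 78.02% of *Mbnl1* KO exon tags in coding sequence, so a large coding share was not particular to the members.

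**Figure D4:**
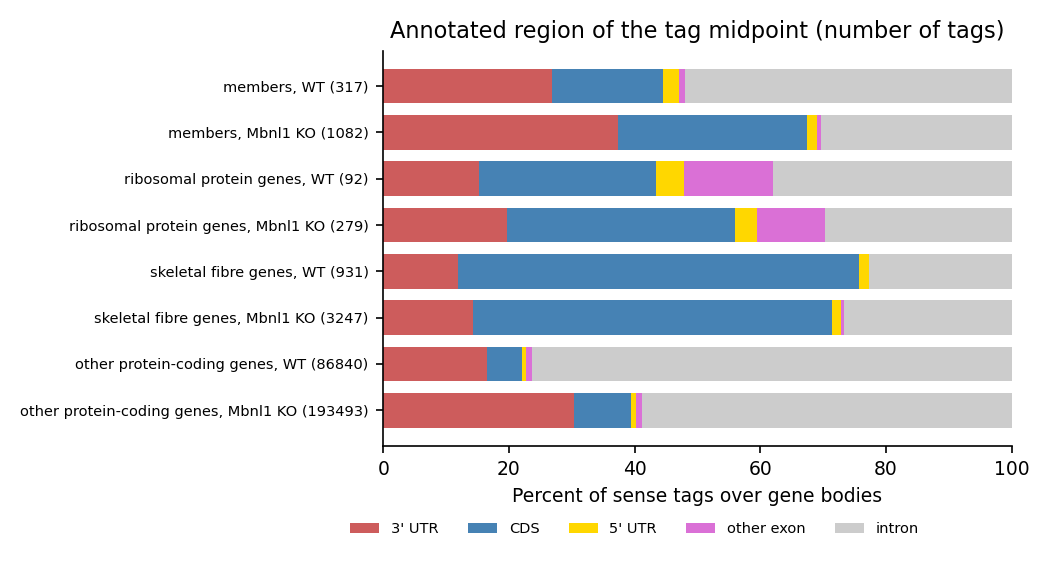
Percent of sense tags by annotated region of the tag midpoint, for members, ribosomal protein genes, skeletal fibre genes and all other protein-coding genes in each table, with the number of tags in brackets. Exon tags make up 47.9% (WT) and 69.6% (*Mbnl1* KO) on members and 23.7% and 41.2% on other genes.

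The position of exon tags along the mRNA was then measured. Tags were placed on the longest coding transcript of each gene, which took 148 WT and 746 *Mbnl1* KO tags of members. From 1 to 200 nt after the stop codon lay 30.4% (23.1 to 38.5) of these WT tags and 29.6% (26.4 to 33.0) of those from *Mbnl1* KO, against 11.3% and 10.7% on other genes. Part of this follows from length, since the median 3′ UTR of the members' longest coding transcripts was 165 nt and that of other genes 806 nt. Weighted by where the tags were, this window made up 12.2% (WT) and 12.4% (*Mbnl1* KO) of the mRNA length in members and 6.06% and 6.08% in other genes. Within 200 nt of the end of the mRNA the shares were alike, 31.1% of WT and 28.3% of *Mbnl1* KO tags on members and 12.1% and 12.4% on other genes, so in these short 3′ UTRs the ends of the coding sequence and of the mRNA cannot be told apart. In both sets the window after the coding sequence held more tags than its share of length, in WT and in *Mbnl1* KO. Without the 5 members with the most tags it held 26.2% and 26.6%, beside 15.6% and 16.3% of the length, and the bin from 100 to 200 nt then held 5.95% and 6.70%.

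**Figure D5:**
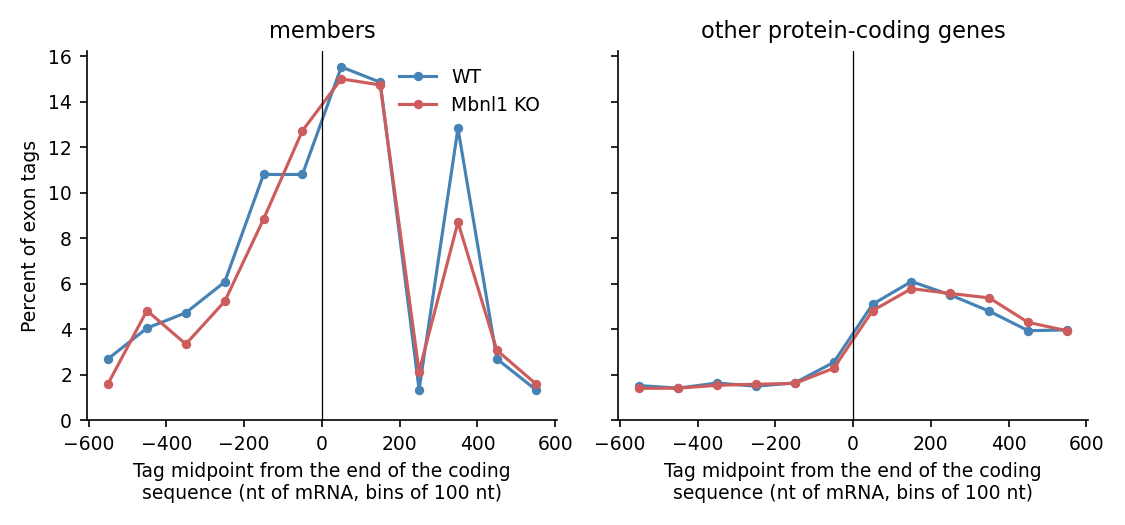
Percent of exon tags by distance of the tag midpoint from the end of the coding sequence, in bins of 100 nt of mRNA, for members (left) and other protein-coding genes (right), WT in blue and *Mbnl1* KO in red. In members the bins from 0 to 100 and 100 to 200 nt are the highest, at 15.5% and 14.9% in WT; the second rise from 300 to 400 nt (12.8% and 8.71%) drops to 0 tags without the 5 members with the most tags.

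The tetramers given above, called the motif here, were read on the strand of the tag and searched in the reference sequence of each tag. On members it occurred in 65.1% of WT exon tags (57.0 to 72.7) and 55.6% of *Mbnl1* KO exon tags (52.0 to 59.2), against 53.8% and 56.7% on other genes. Windows of the same lengths on exons of the same members held it in 30.01% and 33.0%. Tags were longer in *Mbnl1* KO, with a median of 26 nt against 23 nt in WT. The coding part of the members stood highest, with the motif in 78.6% of WT and 62.5% of *Mbnl1* KO tags against 47.9% and 50.8% in coding sequence of other genes. In 3′ UTRs members were at 58.8% and 49.9%, against 56.8% and 58.6%. Without the 5 members with the most tags, the *Mbnl1* KO shares were 57.0% in coding sequence and 55.6% in 3′ UTRs, so the low 3′ UTR share rests on those 5 members, and 3 of the windows shown, from their 3′ UTRs, lack the motif.

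Other genes of the pathway were taken from fixed lists. Of 19 further assembly and insertion factors, 14 had tags, with 33 in WT and 119 in *Mbnl1* KO and a ratio of 2.60 (1.76 to 3.95). The 4 with at least 20 pooled tags all had a ratio of 2 or more, as 41.5% of all genes with as many tags did, but 3 of their intervals include 1. These are Atpaf1, a chaperone of complex V, at 1 WT and 19 *Mbnl1* KO tags (13.7, 2.18 to 569), Lrpprc, which stabilises mitochondrial mRNAs, at 9 and 26 (2.08, 0.946 to 5.05), Nubpl at 5 and 18 (2.60, 0.929 to 8.94), and Uqcc at 5 and 16 (2.31, 0.808 to 8.05). Only the interval of Atpaf1 lay above 1, which is 1 of the 4, against 38.4% of all genes with as many tags.

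Carriers and uncoupling proteins, 5 genes, had 24 WT and 69 *Mbnl1* KO tags (2.07, 1.29 to 3.45). Ucp2, an uncoupling protein, had 5 and 32 tags (4.61, 1.78 to 15.2), Slc25a3, the phosphate carrier, 4 and 19 (3.42, 1.14 to 13.8), and Slc25a4, the muscle adenine nucleotide carrier, 10 and 16 (1.15, 0.492 to 2.84). Ucp3, the muscle uncoupling protein, had 5 and 1 (0.144, 0.00305 to 1.29), and Slc25a5 had 0 and 1. The 7 genes of electron entry had 28 and 85 tags (2.19, 1.41 to 3.49), and 0 of the 2 with at least 20 tags reached a ratio of 2, against 41.5% of all genes. Of these, Gpd2, a glycerol phosphate dehydrogenase, stood at 1.97 (1.07 to 3.83) and Etfa, an electron transfer flavoprotein subunit, at 1.53 (0.627 to 4.10).

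The 13 subunits encoded in the mitochondrial genome had 132 WT and 687 *Mbnl1* KO tags (ratio 3.75, 3.11 to 4.56), which is above the interval of the nuclear members over their bodies (2.17 to 2.80) and overlaps that on their exons (3.00 to 4.28). The tags were not checked for nuclear copies of mitochondrial DNA. The 138 cytoplasmic ribosomal protein genes, another set of short and abundant mRNAs, had fewer tags than the members, 92 WT and 279 *Mbnl1* KO, and 53 of them had none. Their ratio was 2.19 (1.72 to 2.80) over bodies and 2.48 (1.84 to 3.39) on exons, so both intervals overlap those of the members. Per kb of coding sequence they had 0.350 WT and 1.36 *Mbnl1* KO tags, below the 1.03 and 5.97 of the members.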

How the data were processed

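The data are Mbnl2 HITS-CLIP tags from quadriceps, with 3 mice of each genotype. Each deposited table holds positions in mm9 and is already free of likely PCR duplicates. It pools the animals of a genotype. According to the labels and methods the authors used BWA as aligner (version not given in the sources used here), after a quality filter and with a minimum length. The deposited count of a tag says how many reads it stands for and is not normalized. High and low RNase libraries are not separated.

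Tags overlapping a gene body on its strand in GENCODE for mm9 (NCBIM37) were counted in Python 3.11.15 (pandas 2.3.3, numpy 2.4.6 and, for intervals, scipy 1.17.1) and divided by the tags of the table (343554 and 476543). Regions were given by the tag midpoint, with the 3′ UTR before coding sequence, 5′ UTR, other exon and intron. Exact Clopper-Pearson intervals at 95% cover counting error only. Tags at the same position were counted as deposited, and if they are not independent molecules the intervals are too narrow. Ratios were called for genes with at least 20 pooled tags. A gene with 0 WT tags has no finite ratio, and it entered medians and counts as above any finite value. The floor of 3 tags did not enter these, and served only for the limits stated beside counts of 0. The counting and intervals were tested on simulated data. Motifs and uniqueness were read from the reference, not from reads.

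Members and lists were chosen with earlier results of these data known. The genes named are the 3 members of each complex with the most tags, the isoform groups, Cycs and Cyc1, and the 3 highest and 3 lowest ratios among members with at least 20 tags. Members named outside this rule were chosen after their values were seen. Ribosomal protein genes were taken by symbol, without the Rps6k kinases. Sequences from chromosome 18 were not used here. The alternatives are given in the closing section.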

Additional observations from a re-analysis of the deposited data

Results flagged for a closer look

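Tags on the strand opposite to the members are not part of the comparisons above. There were 134 in WT and 149 in *Mbnl1* KO, against 317 and 1082 on the sense strand, and 87 and 50 of them were single-base tags. The Atp5o body alone held 16 and 38 of them, which leaves 118 and 111 elsewhere. They drew notice because 0 tags would allow no more than 3.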

How the results depend on the processing

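No paired analysis was possible because each table pools its 3 mice, and no mouse could be left out. The summed ratio of the members (2.46) stayed above 1 under every setting tried. It was 3.41 without scaling to the table, 1.42 with the median gene set to 1, 2.11 without single-base tags, 1.86 with tags of at least 2 reads, 1.70 with both, 3.58 with tags of at least 25 nt and 3.57 on exons. Of the settings added after the data were seen, keeping member tags that occur once in the genome gave 2.85. The median ratio (2.02, all genes 1.74) was 1.16 with the median gene set to 1, 3.60 with at least 10 pooled tags (all genes 1.67), 4.68 with at least 25 nt (3.12) and 3.38 on exons (3.17). The number of members at a ratio of 2 or more was 7 of 13, against 41.5% of all genes. It was 12 of 13 (62.8% of all genes) without scaling, 4 of 13 (13.6%) with the median gene set to 1, 3 of 8 (30.9%) with at least 2 reads, 4 of 8 (22.4%) with single-base tags also left out, 4 of 7 (66.3%) with at least 25 nt, and 23 of 35 (39.2%) with at least 10 pooled tags. Atp5b reversed, to 0.979, with at least 2 reads and no single-base tags. Cox10 was then 0.522 on 8 pooled tags (0.560 on 10 with at least 2 reads alone). With at least 25 nt, Sdha was 11.9 on 81 pooled tags and Uqcrc2 24.2 on 32. Very few of these can be WT tags, so both values are uncertain. Over the 13 members, 170 values under other settings were computed, leaving out those with 0 WT tags. Of these, 150 stayed within their intervals and 19 moved, among them Atp5o, which was 2.95 without single-base tags and 0.461 without tags on another gene. Leaving out the 5 members with the most tags, also added after the data were seen, gave 3 of 8 members at 2 or more (41.4% of all genes) and 3′ UTR shares of 38.6% in WT and 41.2% in *Mbnl1* KO. These shares stayed within their intervals without single-base tags, with at least 2 reads, with both, on distinct positions, with at least 25 nt, with coding sequence before 3′ UTR, with member tags that occur once in the genome and without Atp5o and Uqcrc1, and they were not computed under the remaining settings. The cause of these shifts was not tested. Depth limits most members, since only 13 of 101 have 20 tags.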

Other observations

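Reads per tag differed between the tables on members as elsewhere. The member tags stood for 12138 WT and 262964 *Mbnl1* KO reads. Tags of 1 read made up 55.8% of the WT and 35.6% of the *Mbnl1* KO tags on members, against 79.0% and 59.5% of all tags. Of the member tags on exons, 88.8% in WT and 91.0% in *Mbnl1* KO have a reference sequence that occurs once in mm9, against 73.5% and 85.2% over the whole bodies.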
